A study of Danio rerio with 6 samples.

Results

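The genes described are 10 genes of the zebrafish pituitary gland: the somatolactin genes *smtlb* and *smtla*, the prolactin gene *prl*, the growth hormone gene *gh1*, the proopiomelanocortin gene *pomca*, the glycoprotein hormone genes *cga*, *tshba*, *fshb* and *lhb*, and *pou1f1*, the transcription factor gene of several pituitary lineages. They were found by exact gene symbol, and all 10 are among the 27335 genes of the deposited table. The members were chosen by the FPKM of this contrast, after *smtlb* had been seen to be far higher in *tafazzin* mutants, so the difference of the members between genotypes is given as a description, without a test. RNA-seq was performed on whole larvae at 5 days post-fertilization (dpf), with 1 library from each of 3 pools of wild-type and 3 pools of maternal zygotic (MZ) *tafazzin* mutant animals, 25 larvae to a pool and no treatment named for either group. MZ mutants were bred from homozygous parents carrying *taz* E3, a CRISPR/Cas9 allele with a frameshift in exon 3, so that wild-type transcript is missing from mother and embryo. Wild-type larvae descend from wild-type siblings of those parents. The methods speak of the same clutch for all pools and the results of separate incrosses, so genotype and parental cross cannot be told apart. The allele is 1 line, and a value stands for the average of 25 animals and of all their tissues.

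The anterior pituitary secretes peptide hormones from separate cell types. Growth hormone, prolactin and the somatolactins form 1 hormone family, related in sequence and acting through cytokine-type receptors, and the cells that make them depend on Pou1f1. In freshwater fish, prolactin is known for retention of ions and growth hormone for body growth. Somatolactins occur in fish and are best known from medaka, where loss of somatolactin alpha changes the numbers of pigment cells. Pomca is cut into adrenocorticotropic hormone, which drives the interrenal gland, and into melanocyte-stimulating hormone. The thyroid-stimulating and both gonad-stimulating hormones each pair the alpha chain Cga with a beta chain of their own, Tshba, Fshb or Lhb.

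Values are FPKM, fragment numbers divided by exon length and by the number of fragments mapped, so levels of different genes can be set side by side. Pools are named 0 to 2 after the deposited columns. From the step that 1 fragment adds to low genes, the other pools held 0.84 to 1.28 times the fragments of mutant pool 0, and absolute depth is unknown. The *tafazzin* transcript, listed as *taz*, had values of 12.3, 12 and 8.53 FPKM in wild-type and 6.09, 4.58 and 3.84 in mutants. It was lower in all mutant pools as labelled (limma: log2 ratio -1.04, adjusted p = 0.0468). This call was lost when any pool except wild-type pool 2 was left out (0.0806 to 0.184). An adjusted p depends on all genes of its fit, and 422 genes passed at 0.05 from limma without wild-type pool 2, against 199 with all pools. Whether a call held without a pool therefore does not measure how far the gene itself rests on that pool. Along the first principal component, with 36.1% of the variance, wild-type pool 2 lay at -10.5, nearer to the mutant pools (16.4 to 35.2) than wild-type pools 0 and 1 (-29 and -32), and results that change without it are given with and without it. Whole-larva markers were present in every pool, with summed FPKM of 8 skeletal muscle markers from 14660 to 17786 and of 8 liver markers from 2407 to 2944. Among genes needed in the pituitary, *pitx1* was at 11.3 to 13.2 FPKM and *lhx3* at 3.74 to 7.18, and both also serve other tissues.

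Of the 10 pituitary genes, 4 had higher values in all MZ *tafazzin* mutant pools than in any wild-type pool, and 6 overlapped or were without signal. Somatolactin beta was nearly absent from wild-type and was the most abundant of the 10 transcripts in each mutant pool. Prolactin, *cga* and *pomca* were the other 3, whereas growth hormone overlapped and had a lower mutant mean. For 0 members the mutant pools lay wholly below. Of all genes tested, 11.9% lay wholly above, 10.5% wholly below, and 22.3% in either direction. Since the list was made with this contrast known, nothing is read from that share. In whole-larva RNA, a difference in the number of hormone cells and a difference in RNA per cell cannot be told apart.

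**Figure D1:**
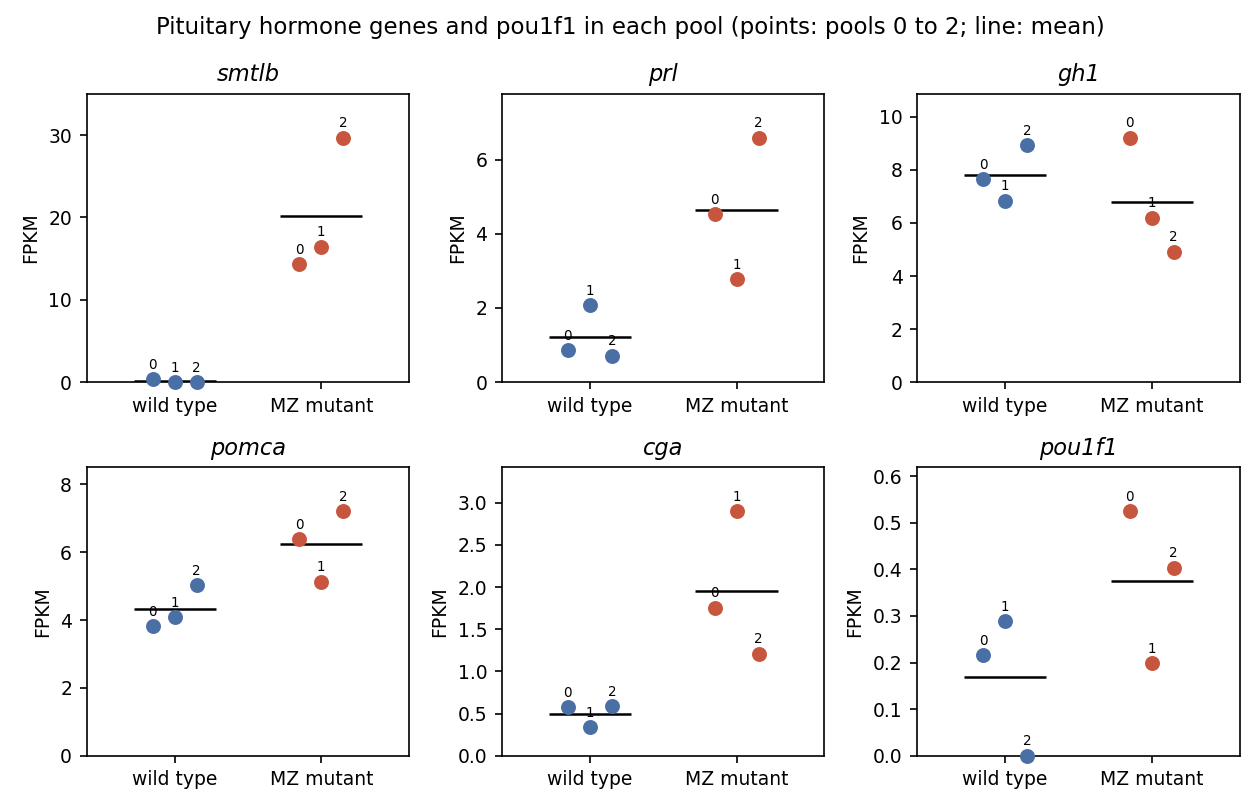
FPKM of 6 of the pituitary genes in each of 3 wild-type and 3 MZ *tafazzin* mutant pools, on linear axes from 0; each point is 1 pool of 25 larvae, labelled with its column number, and lines are means. *smtlb* lies at 0 to 0.327 in wild-type and 14.3 to 29.7 in mutants, *prl*, *pomca* and *cga* are separated by genotype, and *gh1* and *pou1f1* overlap.

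The *smtlb* gene, which encodes somatolactin beta, lies on chromosome 10 of GRCz11 from 39314577 to 39321366, and no other gene of the table overlaps it. Its FPKM was 14.3, 16.5 and 29.7 in mutant pools 0, 1 and 2, against 0.327 in wild-type pool 0, and it is listed at 0 in wild-type pools 1 and 2. Expression was thus present in all mutant pools and close to the detection limit in all wild-type pools, including wild-type pool 2. The mutant values were 43.8, 50.4 and 91 times that of wild-type pool 0. On the log2(FPKM + 1) scale, which understates changes from values near 0, the difference was 4.2 (standard error 0.27). If the value in wild-type pool 0 stood for 1 fragment, those in the mutants would stand for about 35.2, 51.1 and 93.8 fragments, and for more if it stood for more. Under that same assumption, 3 fragments, a margin set here above the listed 0, would be at most 1.45 FPKM in wild-type pool 1 and 1.35 in wild-type pool 2. Both limits are far below the lowest mutant value. Of all 27335 genes, *smtlb* was the only 1 with a wild-type mean under 0.5 FPKM and at least 5 FPKM in each mutant pool, which is 0.00366% of them. These limits were applied with the difference of *smtlb* already known, so nothing is read from that share.

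The paralog *smtla*, which encodes somatolactin alpha and lies on chromosome 18 from 48168694 to 48178147, is listed at 0 in all 6 pools. No comparison between genotypes can be made for it, and the somatolactin signal of these larvae came from *smtlb*.

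The prolactin gene *prl*, on chromosome 3 from 32341916 to 32345897, was at 0.866, 2.08 and 0.718 FPKM in wild-type pools and at 4.53, 2.77 and 6.59 in mutant pools. The lowest mutant pool was above the highest wild-type pool, although by less than the spread within either group. Means were 1.22 ± 0.745 in wild-type and 4.63 ± 1.92 in mutants (SD, n = 3 pools each), a 3.79-fold difference and a difference of 1.33 on the log2(FPKM + 1) scale (standard error 0.31). With any 1 pool left out, this log2 difference lay between 1.09 and 1.59. The ratio of means then lay between 2.99, without mutant pool 2, and 5.84, without wild-type pool 1, each the highest of its group. That ratio rests on low wild-type values, 0.866 and 0.718 FPKM in wild-type pools 0 and 2, and is uncertain for that reason. The second prolactin gene, *prl2*, has a value of 0 in every wild-type pool and in mutant pool 1 and was at 0.306 and 0.708 FPKM in mutant pools 0 and 2.

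The growth hormone gene *gh1*, on chromosome 3 from 22327740 to 22332913, was at 7.66, 6.83 and 8.93 FPKM in wild-type and at 9.22, 6.2 and 4.91 in mutants. The groups overlapped, with the highest value of all in mutant pool 0 and the lowest in mutant pool 2. Means were 7.81 ± 1.06 and 6.78 ± 2.21 FPKM (SD, n = 3 pools each), a difference of -0.21 on the log2(FPKM + 1) scale (standard error 0.20). Unlike its relatives *smtlb* and *prl*, growth hormone thus did not separate the genotypes. In mutant pool 2, where *smtlb* and *prl* had their highest values, *gh1* had its lowest. The ratio of *gh1* means, mutant over wild-type, was 0.987 without mutant pool 2, 0.905 without mutant pool 1 and 0.712 without mutant pool 0. Mutant pool 1 (6.2 FPKM) also lay below each wild-type pool, so the overlap came from mutant pool 0. Size of the difference and overlap thus each depend on single pools. Prolactin amounted to 11.3%, 30.4% and 8.04% of *gh1* FPKM in wild-type pools 0, 1 and 2 and to 49.1%, 44.7% and 134% in the mutant pools. The ratio of *prl* to *gh1* within a pool does not change with the scaling of the pool, and it was higher in each mutant pool than in any wild-type pool. It is made from the same member values, so it is no separate evidence. The 134% of mutant pool 2 joins the highest *prl* value to the lowest *gh1* value.

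The *pomca* gene, on chromosome 17 from 33226954 to 33230034, was at 3.82, 4.09 and 5.03 FPKM in wild-type and at 6.39, 5.14 and 7.22 in mutants. The groups were only just separate, since mutant pool 1 exceeded wild-type pool 2 by little. Means were 4.32 ± 0.635 and 6.25 ± 1.05 FPKM (SD, n = 3 pools each), a 1.45-fold difference and 0.44 on the log2(FPKM + 1) scale (standard error 0.16). Its paralog *pomcb* overlapped between genotypes, with 0 to 1.11 FPKM in wild-type and 0.522 to 1.23 in mutants.

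Among the glycoprotein hormone genes, the alpha chain had a value above 0 in every pool, and each beta chain in 1 pool at most. The alpha chain gene *cga*, on chromosome 17 from 49439217 to 49443604, was at 0.574, 0.338 and 0.585 FPKM in wild-type and at 1.76, 2.9 and 1.21 in mutants. Each mutant pool was above each wild-type pool, and mean FPKM was 0.499 ± 0.14 and 1.96 ± 0.864 (SD over the 3 pools), a 3.92-fold difference and 0.94 on the log2(FPKM + 1) scale (standard error 0.25). The ratio rests on low wild-type values and is uncertain for that reason. The thyroid-stimulating hormone beta gene *tshba*, on chromosome 6 from 49081004 to 49085325, was at 0.915 FPKM in wild-type pool 1 with 0 listed in the other 5 pools. The follicle-stimulating hormone beta gene *fshb*, on chromosome 7 from 32605708 to 32611714, was at 0.202 FPKM in mutant pool 0 and is listed at 0 elsewhere, and the luteinizing hormone beta gene *lhb*, on chromosome 13 from 2523065 to 2526033, is listed at 0 in all 6 pools. The files thus do not show which beta chain, if any, went with the higher *cga* level.

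The transcription factor gene *pou1f1*, on chromosome 9 from 19132884 to 19161982, was at 0.215 and 0.288 FPKM in wild-type pools 0 and 1 and 0 in wild-type pool 2, and was at 0.525, 0.198 and 0.404 in the mutant pools. The groups overlapped, and the levels are too low to show a difference. Of the 10 members, 5 (*smtlb*, *prl*, *gh1*, *pomca* and *cga*) had a mean of at least 0.5 FPKM over all pools, the minimum for the test across genes, and 5 did not.

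The order of the levels changed at the top. In wild-type it was *gh1*, *pomca*, *prl* and *cga*, and no value of 1 of these genes reached into the range of the next. In wild-type pool 1, *tshba* (0.915 FPKM) stood between *prl* and *cga*. In mutants *smtlb* stood first, with its lowest pool (14.3 FPKM) above the highest *gh1* value (9.22), while *gh1* overlapped *pomca*, *pomca* overlapped *prl*, and *prl* overlapped *cga*. Somatolactin beta made up 38.7%, 48.9% and 59.4% of the summed FPKM of the 10 genes in mutant pools 0, 1 and 2, and 2.43% in wild-type pool 0. Growth hormone made up 56.9%, 47% and 58.5% in wild-type and 25%, 18.4% and 9.82% in mutants. The sum of the 10 genes was 13.5, 14.5 and 15.3 FPKM in wild-type and 36.9, 33.7 and 50 in mutants. Without *smtlb* it was 13.1, 14.5 and 15.3 in wild-type and 22.6, 17.2 and 20.3 in mutants. That sum still holds *prl*, *pomca* and *cga*, each already seen to be higher in all mutant pools, so nothing further is read from it.

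**Figure D2:**
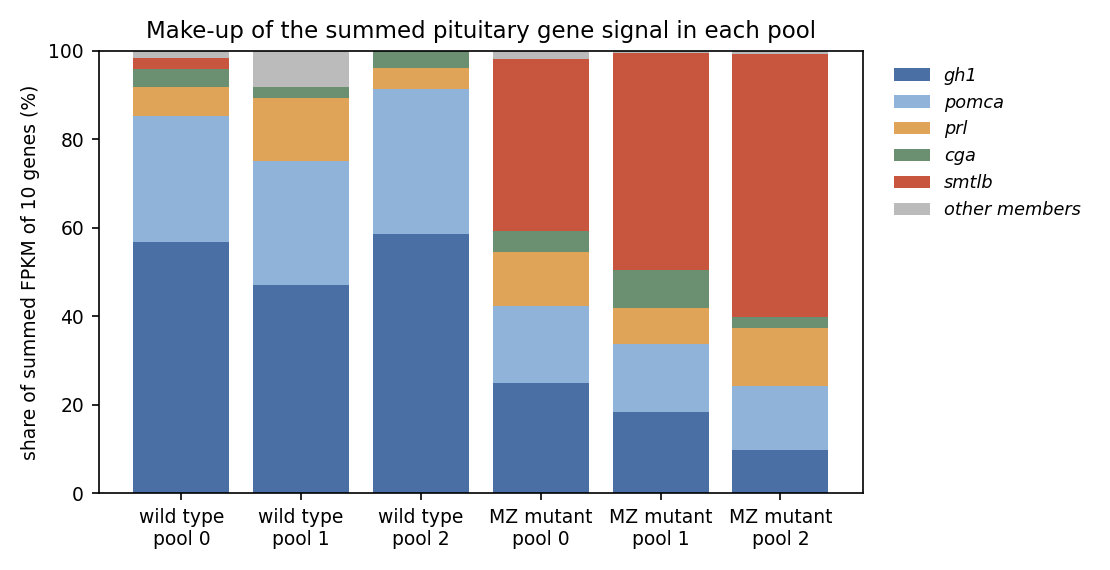
Share (%) of each gene in the summed FPKM of the 10 pituitary genes, stacked to 100% for each of the 6 pools; colours are genes and grey holds the 5 genes of lowest level. *gh1* is the largest part in wild-type (47% to 58.5%) and *smtlb* in mutants (38.7% to 59.4%). A larger share of *smtlb* by itself lowers those of the other genes.

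Other genes whose profile over the 6 pools was most like that of *smtlb* were found by the Euclidean distance between standardized log2(FPKM + 1) values, among 13828 other genes that averaged 5 FPKM or more in either genotype. The 5 nearest were *adi1*, an enzyme of methionine salvage, the claudin gene *cldne*, *si:ch73-86n18.1*, the palmitoyl-protein thioesterase gene *ppt1* and *chmp4bb*, of the ESCRT-III complex, at distances of 0.214 to 0.27. The epithelial calcium channel gene *trpv6*, named after its values were seen, was the sixth (distance 0.272). The locus of *ppt1* overlaps that of another gene. The distance ignores the size of the change, and the nearest genes changed far less than *smtlb*: the mean of *adi1* was 1.61-fold and that of *cldne* 1.80-fold higher in mutants. Among the members, *pomca* came at rank 1153 (distance 1.29) and *gh1* at rank 10219 (3.86), while *prl* and *cga* were below the level needed.

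Genes around the pituitary axis were examined in 12 lists that were written by known role, with earlier results of these data known. Of 182 list genes tested, 8 passed at an adjusted p under 0.05 from limma, 6 higher and 2 lower in mutants. That is 4.4%, against 0.911% of all 21843 genes tested, where 0.696% were higher and 0.215% lower. The rises of *trpv6* and *gch2* were known when the lists were written, so nothing is read from that share. Without wild-type pool 2 the number was also 8, while the number over all genes rose from 199 to 422. Of these 8 list genes 7 were shared, *dmrt1* being lost (adjusted p = 0.0695 from limma) and the gluconeogenesis gene *pck1* of the interrenal list gained (0.0239). Without any 1 other pool, 2 or 3 list genes passed. Without the variance trend 2 passed, *trpv6* and *gch2*. With all genes of low level kept in the limma fit, 0 of 210 list genes passed, 39 having an unadjusted p under 0.05. The share of all genes under that threshold in this fit is not given, so nothing is read from the 39.

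**Figure D3:**
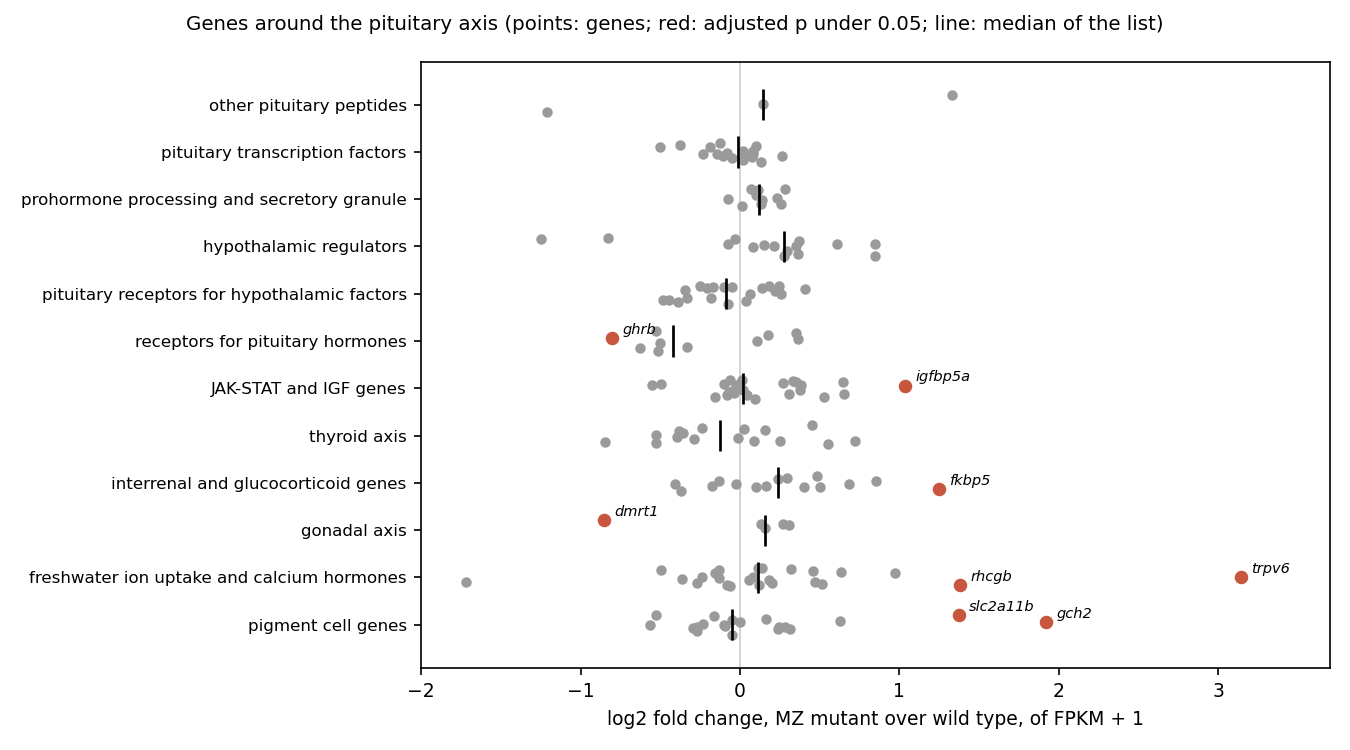
Log2 ratio of FPKM + 1, MZ mutant over wild-type, of each gene tested in 12 lists around the pituitary axis; red points passed at an adjusted p under 0.05 from limma and carry their symbols, grey points did not, and vertical lines are list medians. The 8 red points include *trpv6* at 3.14, farthest to the right, and *ghrb* at -0.80 among the receptors.

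Upstream of the gland, none of 15 hypothalamic regulator genes passed by limma. Before adjustment, 3 were higher and 2 lower with p under 0.05, a threshold that 9.88% of all genes passed upward and 6.4% downward. Their median log2 ratio was 0.27, against 0.002 over all genes. The prolactin-releasing hormone gene *prlh2* was at 4.5, 4.19 and 4.96 FPKM in wild-type and at 8.43, 6.32 and 7.76 in mutants, without overlap (limma: log2 ratio 0.61, adjusted p = 0.093). The somatostatin family gene *sst6* was at 3.37, 3.42 and 3.78 FPKM in wild-type and at 0.986, 1.17 and 2.82 in mutants (limma: log2 ratio -0.83, adjusted p = 0.16). The somatostatin genes *sst1.2* and *sst1.1* went the other way, with log2 ratios of 0.85 and 0.37 (limma adjusted p = 0.163 and 0.406). No direction is thus read for somatostatin as a whole. In mammals, somatostatin inhibits release of growth hormone. The other prolactin-releasing hormone gene of the list, *prlh*, is listed at 0 in all pools.

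Of 20 genes of receptors through which the hypothalamus acts on the pituitary, none passed by limma (before adjustment, 2 lower and 0 higher with p under 0.05, median log2 ratio -0.09). The dopamine receptor gene *drd2b*, of the D2 type that restrains prolactin cells in vertebrates, was at 6.64, 5.15 and 6.11 FPKM in wild-type and at 3.11, 5.35 and 3.72 in mutants, where mutant pool 1 lay within the wild-type range (limma: log2 ratio -0.48, adjusted p = 0.252). The PACAP receptor gene *adcyap1r1b* averaged 18.1 ± 1.73 and 14.2 ± 1.74 FPKM (SD, n = 3 pools each; limma adjusted p = 0.22).

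Among genes that mark the gland or its secretory machinery, no call was made. None of 18 pituitary transcription factor genes passed by limma or had an unadjusted p under 0.05, with a median log2 ratio of -0.01, and their summed FPKM was 249 to 250.1 in wild-type and 244 to 255 in mutants. The smallest p among them belonged to *lhx3*, whose locus overlaps those of other genes (limma: log2 ratio -0.37, adjusted p = 0.309) and *neurod4* (0.26, adjusted p = 0.312). None of 10 genes of prohormone processing and secretory granules passed by limma (before adjustment, 1 higher with p under 0.05), with a median of 0.12. The prohormone convertase gene *pcsk1*, whose product begins the cutting of Pomc and whose locus overlaps that of another gene, was at 19.5 ± 1.79 and 23.5 ± 2.28 FPKM (SD, n = 3 pools each; limma adjusted p = 0.286), and *scg2b*, a secretogranin gene, at 32.1 ± 4.72 and 38 ± 6.29 (adjusted p = 0.461). Most of these genes are active in the nervous system too, so their whole-larva level is not that of the pituitary. Among 3 further peptide hormone genes tested none passed by limma (before adjustment, 1 higher and 1 lower with p under 0.05). The vasopressin gene *avp* was at 0.76 FPKM in wild-type pool 0, at 0 in wild-type pools 1 and 2, and at 0.95, 3.59 and 2.13 in mutants (adjusted p = 0.12 from limma). The oxytocin gene *oxt* was at 7.7, 3.65 and 1.54 FPKM in wild-type and at 1.35, 2.51 and 0 in mutants (adjusted p = 0.299 from limma).

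Receptor genes for pituitary hormones had a median log2 ratio of -0.42 over the 10 tested, and 1 of them fell. That gene, *ghrb*, encodes a growth hormone receptor and was at 10.1, 12.2 and 11.9 FPKM in wild-type and at 6.41, 6.08 and 5.79 in mutants. The mutant mean was 53.4% of wild-type (limma: log2 ratio -0.80 with a standard error of 0.12, adjusted p = 0.0292), and each mutant pool was below each wild-type pool. With wild-type pool 2 left out the call held (limma adjusted p = 0.045), and it was lost without any 1 other pool (0.0728 to 0.113). The log2 ratio was -0.77 (standard error 0.14) without wild-type pool 2 and -0.88 (standard error 0.13) without wild-type pool 0. The gene's own difference was thus no weaker in that fit where the call was lost. At an unadjusted p under 0.05 from limma, 4 of the 10 were lower and 0 higher, against 6.4% lower and 9.88% higher of all genes tested. Of those 4, only *ghrb* passed after adjustment.

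The other growth hormone and prolactin receptor genes did not pass, and were named for their role after their values had been seen. The second growth hormone receptor gene, *ghra*, was at 15.9, 15 and 13.6 FPKM in wild-type and at 10.7, 10.4 and 13.8 in mutants, where mutant pool 2 lay within the wild-type range (limma: log2 ratio -0.33 with a standard error of 0.13, adjusted p = 0.255). The prolactin receptor gene *prlrb* was at 4.1, 3.37 and 2.45 FPKM in wild-type and at 1.8, 2.01 and 2.04 in mutants, without overlap (limma: log2 ratio -0.53, adjusted p = 0.216). The second prolactin receptor gene, *prlra*, was at 11.5, 12.2 and 10.6 FPKM in wild-type and at 12.5, 12.1 and 14.7 in mutants (limma: log2 ratio 0.18, adjusted p = 0.488). The receptor accessory gene *mrap2a* averaged 3.55 ± 0.589 and 2.18 ± 0.338 FPKM (SD, n = 3 pools each; limma adjusted p = 0.199). Receptors of the glands were scarcely measured: the corticotropin, thyrotropin and luteinizing hormone receptor genes *mc2r*, *tshr* and *lhcgr* had means under 0.5 FPKM in both genotypes, and *fshr* is listed at 0.

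**Figure D4:**
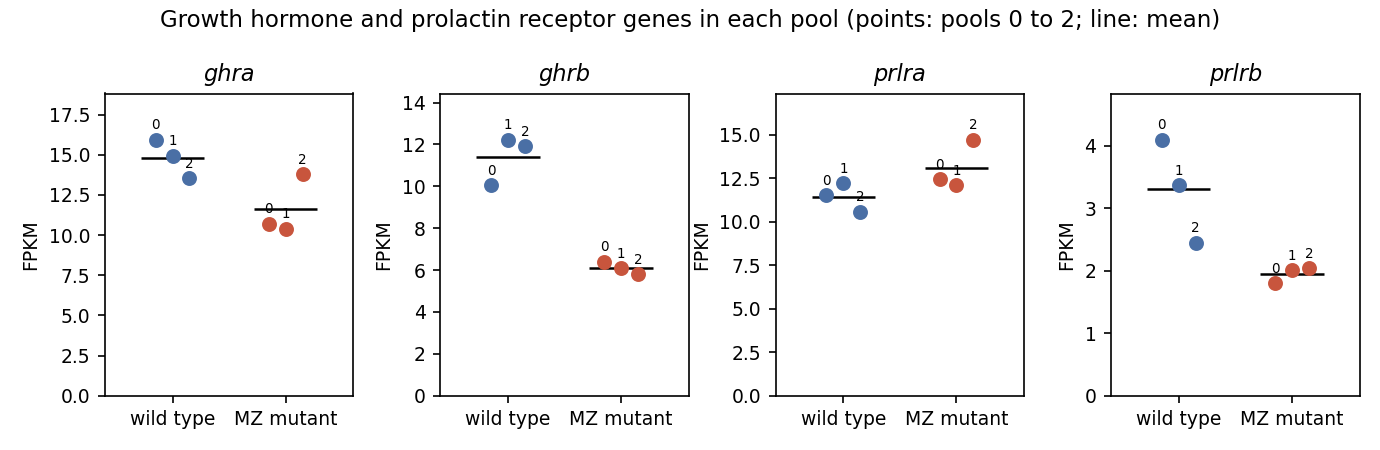
FPKM of the growth hormone receptor genes *ghra* and *ghrb* and the prolactin receptor genes *prlra* and *prlrb* in each wild-type and MZ *tafazzin* mutant pool, on linear axes from 0; points are pools with their column number and lines are means. *ghrb* lies at 10.1 to 12.2 in wild-type and 5.79 to 6.41 in mutants, *prlrb* is also lower in each mutant pool, and *ghra* and *prlra* overlap.

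Downstream of the growth hormone family, 1 of 25 JAK-STAT and IGF genes rose and 24 did not pass, with a median log2 ratio of 0.02. By limma before adjustment, 4 were higher and 1 lower with p under 0.05. The gene that rose, *igfbp5a*, encodes an IGF binding protein that in zebrafish is made by calcium-transporting ionocytes. It was at 5.63, 5.69 and 4.19 FPKM in wild-type and at 11.4, 9.84 and 13.8 in mutants, a 2.26-fold rise (limma: log2 ratio 1.04 with a standard error of 0.16, adjusted p = 0.0306) that was lost when any pool except wild-type pool 2 was left out (0.0625 to 0.115). The kinase gene *jak2a* was at 4.72 ± 0.203 and 6.49 ± 0.616 FPKM (SD, n = 3 pools each; limma adjusted p = 0.2), and its locus overlaps that of another gene.

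Of 25 genes of freshwater ion uptake and calcium hormones, 2 rose and 23 did not pass (median log2 ratio 0.11). By limma before adjustment, 6 were higher and 3 lower with p under 0.05, against 9.88% higher and 6.4% lower of all genes tested. The calcium channel gene *trpv6* was at 4.38, 4.9 and 3.9 FPKM in wild-type and at 39.4, 34 and 74.6 in mutants, an 11.2-fold rise (limma: log2 ratio 3.14, adjusted p = 0.00279), a call that held with any 1 pool left out, and its locus overlaps that of another gene. The ammonium transporter gene *rhcgb*, of acid-secreting ionocytes, was at 6.02, 5.85 and 6.2 FPKM in wild-type and at 14.3, 14.6 and 24.7 in mutants, a 2.97-fold rise (limma: log2 ratio 1.38 with a standard error of 0.19, adjusted p = 0.0217). Both genes, like *smtlb* and *prl*, had their highest value in mutant pool 2. So did *pomca*, *gch2*, *igfbp5a* and *epcam*, while *cga* and *gh1* did not. That pool also lay farthest from wild-type along the first principal component (35.2), so the shared peak is not particular to these genes. The rise of *rhcgb* was lost when pool 0 or 1 of either genotype was left out (limma adjusted p = 0.0544 to 0.0978). Ionocytes sit in the skin, and among 8 epidermis markers values lay in both directions (before adjustment, 3 higher and 4 lower with p under 0.05). By limma 1 fell, the keratin gene *cyt1* (760.6 ± 161.4 in wild-type and 385.4 ± 43.5 in mutants, SD over 3 pools, limma adjusted p = 0.0361, and 0.0948 to 0.149 without any 1 pool except wild-type pool 2). Summed FPKM of the 8 markers was 4419 to 5982 in wild-type and 3331 to 4124 in mutants, while the epithelial marker *epcam* was at 106.7 ± 3.72 and 178 ± 40.7 (adjusted p = 0.0595). The part of epidermis in these rises was not tested.

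Of 20 pigment cell genes, 2 rose and 18 did not pass (by limma before adjustment, 4 higher and 1 lower with p under 0.05, median log2 ratio -0.05). The 2 that rose were *gch2*, a GTP cyclohydrolase of pteridine synthesis, at 12.4, 13.3 and 16.6 FPKM in wild-type and 42, 60 and 68.7 in mutants (limma: log2 ratio 1.92, adjusted p = 0.00507) and *slc2a11b*, a transporter gene of xanthophore development in medaka, which was at 3.23, 1.55 and 2.88 FPKM in wild-type and at 7.05, 7.54 and 9.55 in mutants (limma: log2 ratio 1.37 with a standard error of 0.21, adjusted p = 0.0306). The call of *gch2* held with any 1 pool left out, and that of *slc2a11b* was lost when any pool except wild-type pool 2 was left out (adjusted p = 0.0749 to 0.126 from limma).

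In the interrenal axis, the target of Pomc-derived corticotropin, 1 of 15 genes rose and 14 did not pass, with a median log2 ratio of 0.24. By limma before adjustment, 4 were higher and 1 lower with p under 0.05. The gene that rose, *fkbp5*, encodes a co-chaperone of the glucocorticoid receptor and is induced by glucocorticoids. It was at 23.6, 28.1 and 38.8 FPKM in wild-type and at 70.7, 72.1 and 71.7 in mutants, a 2.37-fold rise (limma: log2 ratio 1.25 with a standard error of 0.16, adjusted p = 0.0145), and its locus overlaps that of another gene. The highest wild-type value was that of wild-type pool 2, without which the adjusted p from limma was 0.00511 and 2 genes of the list passed, and the call was lost without any 1 other pool (0.0534 to 0.077). The glucocorticoid-induced gene *tsc22d3* was at 58.7, 68.9 and 79 FPKM in wild-type and at 89.9, 90.1 and 113 in mutants, without overlap (adjusted p = 0.114 from limma).

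None of 16 thyroid axis genes passed by limma (before adjustment, 3 higher and 4 lower with p under 0.05, median log2 ratio -0.12). The thyroid hormone receptor gene *thrb* was at 28.3, 26.7 and 26.9 FPKM in wild-type and at 21, 20.6 and 20.6 in mutants (limma: log2 ratio -0.38, adjusted p = 0.0757), and *dio3b*, a deiodinase gene that inactivates thyroid hormone, averaged 24 ± 5.17 and 35.4 ± 5.34 FPKM (SD, n = 3 pools each; limma adjusted p = 0.142). Of 5 gonadal axis genes 1 fell, the testis factor gene *dmrt1*, from 7.04, 5.4 and 6.56 FPKM in wild-type to 2.81, 3.53 and 2.82 in mutants (limma: log2 ratio -0.85, adjusted p = 0.0487), which no longer passed once any 1 pool was removed (0.0695 to 0.185). The estrogen receptor gene *esr2b* was at 1.12 ± 0.133 and 1.63 ± 0.333 FPKM (SD, n = 3 pools each; limma adjusted p = 0.472).

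Markers of other tissues that contain hormone-making or neural cells did not separate the genotypes in sum. None of 12 brain and neuron markers passed by limma (before adjustment, 1 higher with p under 0.05), and their summed FPKM was 970.3 to 1073 in wild-type and 1019 to 1089 in mutants. None of 7 pineal markers passed (before adjustment, 1 lower with p under 0.05, summed FPKM 94.7 to 127 and 104 to 131), and none of 9 markers of the endocrine pancreas did (0 at an unadjusted p under 0.05, summed FPKM 112 to 130.3 and 129 to 145). The brain markers nearest to the threshold were *gfap* (adjusted p = 0.278 from limma) and *vamp2* (0.325), the pineal ones *aanat2* (0.17) and *tph2* (0.332), and the pancreatic ones *ins* (0.34) and *pdx1* (0.552). None of the 8 liver or 8 muscle markers passed by limma (1 higher and 1 lower, and 0, at an unadjusted p under 0.05), with *fga* (adjusted p = 0.113) and *serpina1* (0.203) first in liver and *tnnt3a* (0.387) and *acta1b* (0.431) in muscle.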

How the data were processed

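Per the labels and the study's methods, the authors removed adapters with Trim Galore 0.4.2, mapped reads to GRCz11 using STAR 2.5.3, and deposited FPKM of each gene in each pool from Cufflinks 2.2.1 and Cuffdiff. No source used here names the library scaling or how multiply aligned fragments were counted. Columns of the authors' own comparison (fold change, test statistic, p and q) and a table of genes they marked were not used. Column names show genotype and a number but not the labelled sample, so columns served as unlabelled replicates. Separate parents are not stated for the pools, and p-values therefore measure spread between pools that may be technical. At most 0.0603% of genes above 5 FPKM on average had identical values in any pair of pools.

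In limma 3.58.1 (R 4.3.3), a mean-variance trend was fitted to log2(FPKM + 1) of the 21843 genes averaging 0.5 FPKM or more over 6 pools, with Benjamini-Hochberg adjustment over all of them. A log2 ratio is the difference of group means on that scale, mutant minus wild-type. Lists were matched by symbol, 1446 symbols of the table being updated through a RefSeq gene table (GRCz12tu, used for names and chromosome numbers only), and where a symbol had several rows the first was taken. Genes named are the members, *tafazzin*, the 5 genes most like *smtlb*, and per list up to 3 genes that passed or, where fewer than 2 passed, the 2 of smallest p. Named after their values were seen were *pitx1*, *prl2*, *pomcb*, *prlh*, *sst1.1*, *sst1.2*, *ghra*, *prlra*, *prlrb*, *mc2r*, *tshr*, *fshr*, *lhcgr* and *pck1*. Members and lists were chosen with earlier results of these data known. Relative depth is the most frequent ratio between pools of values under 1 FPKM. As alternatives, the pseudocount was set to 0.1, the filter was removed or raised to 5 FPKM, values were scaled by quantiles or medians, the trend was dropped, the column number was used as a block, and each pool was left out. Sequences are not shown. Tables and figures were made with Python 3.11.15, pandas 2.3.3 and matplotlib 3.10.9.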

Additional observations from a re-analysis of the deposited data

How the results depend on the processing

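The log2 differences of *smtlb*, *prl*, *gh1*, *pomca* and *cga* kept their sign under every alternative that could be run. Those of *smtlb*, *prl* and *cga* grew to 6.89, 1.9 and 1.72 with a pseudocount of 0.1, because the main scale compresses low values. With 1 pool left out they lay between 3.89 and 4.4 for *smtlb*, 1.09 and 1.59 for *prl*, -0.43 and -0.03 for *gh1*, 0.35 and 0.56 for *pomca*, and 0.72 and 1.13 for *cga*. With a filter of 5 FPKM, *prl* and *cga* were not tested. Of the genes of the pituitary lists, 8 passed, 0 by limma without a filter (39 of 210 at an unadjusted p under 0.05) and 2 without the variance trend, and with 1 pool left out it was 2 to 8. Over all genes, 199 passed, 6 did without a filter and 38 without the trend, and with 1 pool left out it was 15 to 422, the highest without wild-type pool 2. The cause was not tested. With the column number as a replicate block 353 passed. Deviations of same-numbered pools correlated at 0.003 to 0.08, which cannot show whether these pools share more than a number. Among 511 further values of 40 named genes under the alternatives, 0 changed sign, 64 lost the call and 2 gained it. Most of the 40 genes did not pass in the main fit and had no call to lose. The 64 losses therefore all fall among the few genes that passed, and 511 is not their base. Low FPKM of *cga*, *pou1f1*, the beta chain genes and, in wild-type, *prl* limits what these libraries can show.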

Other observations

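None of the genes that flank *smtlb* on chromosome 10 passed the test. Within 200000 bases on either side lie 14 other genes of the table, of which 12 were tested and 0 passed by limma, with log2 fold changes from -0.50 to 0.94 and a median of 0.08. Nearest to *smtlb* is *kcnj1b*, a potassium channel gene from 39294800 to 39307819 on GRCz11, which was at 1.6, 1.87 and 1.89 FPKM in wild-type and at 1.63, 2.2 and 1.01 in mutants. Of the 12, 1 lay wholly higher in mutants, *slc37a4b*, a glucose-6-phosphate transporter gene, at 7.45, 9.32 and 13 FPKM in wild-type and at 17.3, 19.8 and 21.8 in mutants (adjusted p = 0.0563 from limma). Wholly lower in mutants were *rps25*, a ribosomal protein gene (mean 588.5 and 418 FPKM, adjusted p = 0.0853 from limma), and *kirrel3a*, a cell adhesion gene whose locus overlaps that of another gene (6.75 and 4.46 FPKM, adjusted p = 0.134). These genes were named after their values were seen. Over all genes tested, 11.9% lay wholly higher in mutants and 10.5% wholly lower, so nothing is read from the neighbours that did.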
